A study of Camelina sativa with 41 samples.

Results

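DNA affinity purification sequencing (DAP-seq) lists of 6 transcription factors of camelina (Camelina sativa, a hexaploid oil crop related to rape) were compared for binding sites that they share. The lists are the short ones of the series, apart from 2 with fewer than 100 peaks: Csa11g015700 (211 peaks), Csa04g050690 (278), Csa05g079950 (620), Csa18g003140 (1089), Csa02g060070 (1185) and Csa10g008930 (1778). The sites were chosen by the measured peak positions. A summit, the position the authors give at the centre of a peak, was kept when a summit of another of these 6 lists lay within 100 bp and when fewer than 5 of the 20 factor lists, its own included, had a summit within 100 bp of it. This left 380 summits, out of 5161 in the 6 lists and 717159 in all 20. Joined where they lay within 100 bp of each other, they formed 186 sites.

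DAP-seq incubates sheared genomic DNA with a tagged factor produced in vitro and sequences the fragments that stay bound. Each factor was fused to a Halo tag. The DNA came from pooled leaves of several mature plants of the cultivar Suneson and had been amplified, so that methylation was lost, which the labels call deMethylated. All 20 lists share this DNA and this treatment. The labels name 22 factors and a Halo control; the lists of 2 factors and the control itself were not analysed here. Each factor has 1 list, so every comparison between lists below is a description with no test. Chromatin is absent from the assay, and a peak reports that the protein held naked DNA at that place in vitro.

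A transcription factor of a given family recognises a short DNA word, and members of a family often recognise the same word. Sites shared by factors can therefore lie where related factors hold the same word, or where words of different factors stand side by side. Plant genomes of polyploid origin also hold several copies of most regions, and repeated elements carry the same words to many places. The files pair none of the 6 gene IDs with a name (0 matched the reference table), and the sources used here do not name the genome build. Positions are therefore as in the authors' files, and neither sequences nor neighbouring genes are given.

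Among all 5161 summits of the 6 lists, 575 (11.1%) had a summit of another of the 6 within 100 bp. The shortest lists shared the largest part. For Csa11g015700 it was 49 summits (23.2%), and for Csa04g050690 54 (19.4%). Csa18g003140 shared 174 (16%) and Csa10g008930 191 (10.7%). Csa02g060070 shared 76 (6.41%) and Csa05g079950 31 (5%), the smallest part although its list is longer than those of Csa11g015700 and Csa04g050690. The number of summits in the other 5 lists, with which a share can vary, differs for each factor.

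The limit on the number of lists removed 195 of the 575. The sites therefore hold 146 summits of Csa10g008930, 134 of Csa18g003140, 46 of Csa02g060070, 27 of Csa04g050690, 18 of Csa11g015700 and 9 of Csa05g079950. For Csa11g015700 and Csa05g079950 more shared summits fell outside the limit (31 and 22) than inside it. Of the 380 kept summits and those just beyond, 127 were in exactly 4 lists and 79 in exactly 5, with median signal percentiles of 75.2 and 84.5 within their own lists. At the edge in distance, 18 summits had their nearest partner in the last 10 bp of the 100 bp window and 25 had it in the 10 bp beyond.

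Most sites belonged to a single pair of lists. Csa10g008930 and Csa18g003140 stood together at 120 of the 186 sites (64.5%), 111 of which held no further list of the 6. In terms of each list these were 121 summits, or 6.81%, of Csa10g008930 and 119, or 10.9%, of Csa18g003140. Csa02g060070 and Csa04g050690 followed with 17 sites. Csa02g060070 shared 14 sites with Csa10g008930 and 14 with Csa18g003140, and Csa10g008930 shared 10 with Csa11g015700.

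The remaining pairs were sparse. Csa04g050690 and Csa18g003140 met at 7 sites. Csa02g060070 met Csa05g079950 at 5, and Csa04g050690 met Csa10g008930 and Csa11g015700 at 5 each. Csa02g060070 and Csa11g015700 met at 4, Csa05g079950 and Csa10g008930 at 3, Csa05g079950 and Csa18g003140 at 2, Csa11g015700 and Csa18g003140 at 2, and Csa05g079950 and Csa11g015700 at 1. Csa04g050690 and Csa05g079950 shared 0. In all, 164 sites held kept summits of 2 lists, 13 of 3 and 1 of 4. The other 8 held kept summits of 1 list, since the partner there was itself in 5 or more lists.

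**Figure D1:**
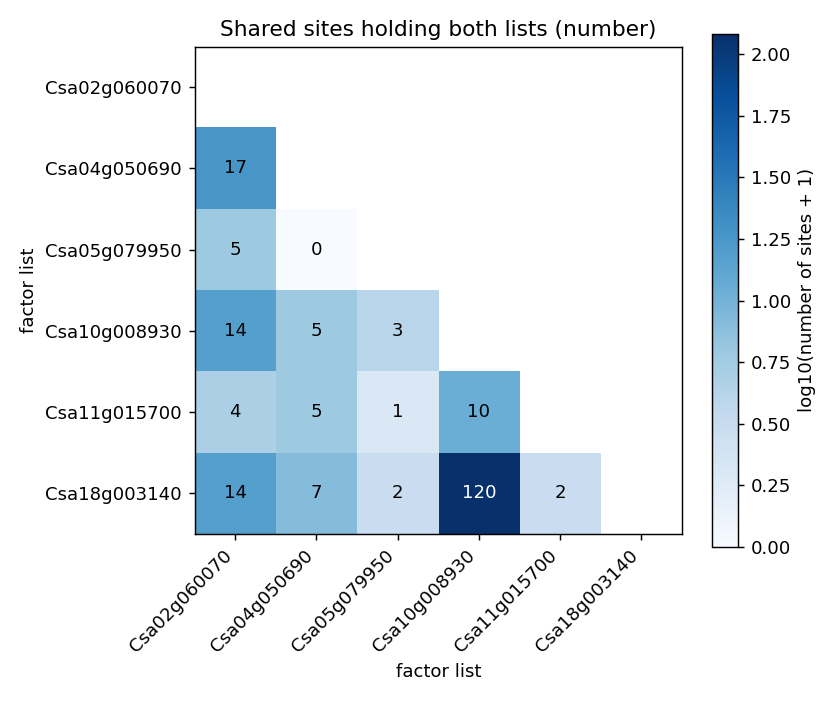
Number of shared sites at which both lists of a pair had a kept summit, for the 15 pairs of the 6 lists (rows and columns are factor lists, and colour is log10 of the number plus 1). The pair of Csa10g008930 and Csa18g003140 holds 120 sites, and the next pair 17.

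Sites lay on all 20 chromosomes, with 3 on chromosome 13 and 20 on chromosome 11. Chromosome 11 also held the most summits of the 6 lists, 9.44% against 10.8% of the sites. Chromosome 18 had 8.06% of the sites and 4.46% of the summits. A group of 36 sites had another site within 20000 bp, in 13 clusters of 2 to 5, and the other 150 stood alone. The cluster of 5 spanned 21453 bp of chromosome 18 from position 7281979, and the largest after it were 4 sites in 27170 bp of chromosome 6 and 4 in 10304 bp of chromosome 11.

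The authors' signal, a value per peak with no stated unit, was used only within a list, as the percentile of a summit among all summits of that list. By construction the whole list has a median of 50. Kept summits lay above it in 5 lists. Their median percentile was 84.8 for Csa04g050690, 78.5 for Csa10g008930, 77.1 for Csa02g060070, 74.8 for Csa11g015700 and 66.3 for Csa18g003140. Csa05g079950 went the other way: its 9 summits had a median percentile of 33.5, and their signals ran from 24 to 45 with a median of 31, against 38 for the list. Only 2 of the 9, at 41 and 45, were in the upper 50% of that list.

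Over all lists 267 of the 380 kept summits (70.3%) were in the upper 50% of their list, and 94 were in the top 10%. Of these 94, 46 were of Csa10g008930, whose kept summits had signals of 22 to 238.7 with a median of 39.95 against 30 for the list. The strongest peak of the whole Csa10g008930 list, at 238.7, was among them. Kept summits of Csa18g003140 had signals of 20 to 105 (median 37, list 32), those of Csa02g060070 38 to 105.1 (median 48.1, list 43), those of Csa04g050690 27 to 74 (median 38.7, list 30) and those of Csa11g015700 17 to 71 (median 25, list 20). In each list the lowest kept signals were at or near the list's minimum, so weak peaks were among those kept. Peaks in the top 10% were kept too, except in Csa05g079950. The highest kept signal there was 45, against a list maximum of 450.3.

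Pooled over the 6 lists, percentiles were higher for shared summits than for unshared ones. The median was 47.2 for the 4586 summits not shared among the 6 lists, 68.9 for the 126 shared summits in exactly 2 lists, 78 for the 127 in exactly 3 and 75.2 for the 127 in exactly 4. The 195 shared summits in 5 or more lists, outside the sites described here, had a median of 84.2. The values did not climb at every step, since 4 lists gave a lower median than 3. Csa05g079950 was an exception to the pooled order. Its kept summits had a median of 33.5, its unshared ones 49.8 and its shared ones in 5 or more lists 51.5.

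At the sites of the main pair the signals of the partners were correlated. At the 120 sites Csa10g008930 had a median signal of 41 (22 to 238.7) and Csa18g003140 of 37.8 (20 to 105), and at 76 sites both were in the upper 50% of their lists. Spearman's rho of the signals was 0.62 over the 120 sites, 0.54 over the 17 sites of Csa02g060070 and Csa04g050690, 0.67 and 0.64 over the 14 sites that Csa02g060070 shared with Csa10g008930 and with Csa18g003140, and 0.67 over the 10 of Csa10g008930 and Csa11g015700. These points share their DNA and include neighbouring and possibly repeated regions, so they are a description.

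**Figure D2:**
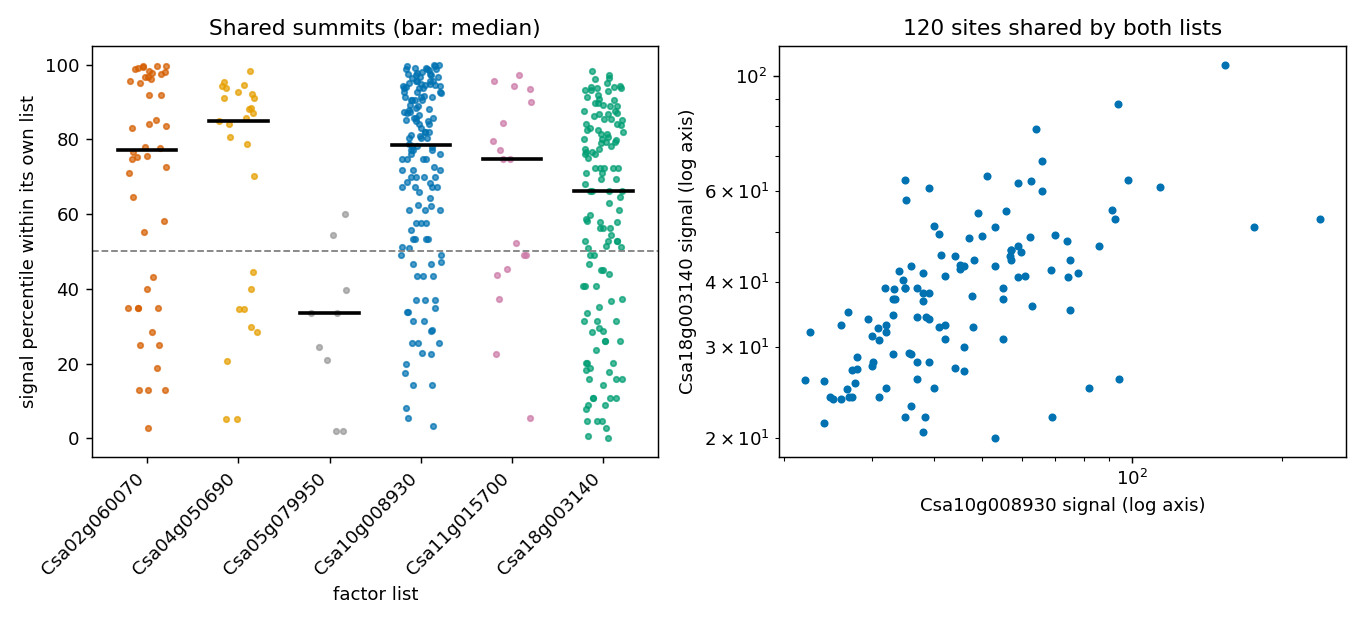
Left, signal percentile of each kept summit within its own list, by list, with the median as a bar and the list median of 50 as a dashed line. Right, signal of Csa18g003140 against that of Csa10g008930 at their 120 shared sites, on log axes. Medians lie between 66.3 and 84.8 for 5 lists and at 33.5 for Csa05g079950.

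The 2 named sites of the main pair are those where the lower of the 2 percentiles was highest. On chromosome 19 at position 20290281 Csa10g008930 had a signal of 153.8 (percentile 99.7), and Csa18g003140, 31 bp away, had 105 (percentile 98.3). On chromosome 11 at position 42165171 Csa18g003140 had 88, and Csa10g008930, 15 bp away, had 93.9. Both factors were thus within the top 5% of their lists at each of these sites, and no long list had a summit there. Other strong sites of the pair did have long lists: the strongest Csa10g008930 peak, 238.7 on chromosome 19 at position 26078395, had Csa06g051300 beside it. For Csa02g060070 with Csa04g050690 the first of the 2 named sites, on chromosome 4 at position 10598920, held signals of 98 and 74. Csa04g012470 (85) was within 100 bp only of the Csa10g008930 summit of that site. The second named site, on chromosome 15 at position 5594555, held 71 and 45 13 bp apart with no long list.

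For the other pairs, the named sites not yet described all had long lists. On chromosome 8 at position 14250000 Csa18g003140 had a signal of 96.4 and Csa02g060070, 76 bp on, 86.6, with Csa06g004330 at 200.5. On chromosome 1 at position 20872143 Csa11g015700 had 48 and Csa10g008930, 47 bp on, 61, with Csa06g004330 and Csa09g088620 also present. On chromosome 2 at position 6847829 Csa10g008930 had 49.5 and Csa02g060070, 37 bp on, 74, with Csa06g004330 and Csa06g051300 present. Csa06g004330 was thus present at these 3 sites, against 21% of all sites. The remaining named site of these pairs, on chromosome 5 at position 24773845, had Csa04g012470 as its long list and is described below.

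The distance between partner summits was not spread evenly over the 100 bp window. At the 120 sites of Csa10g008930 and Csa18g003140 the median distance was 32.5 bp, with 20 sites within 10 bp, and 12 of the 120 kept summit pairs stood at exactly 39 bp. The next most frequent distance, 11 bp, occurred 5 times. For Csa02g060070 and Csa18g003140, 7 of 14 summit pairs were at exactly 16 bp. For Csa02g060070 and Csa04g050690, 6 of 17 were at 8 bp, and for Csa02g060070 and Csa10g008930, 3 of 14 were at 55 bp. The same distances led when pairs in 5 or more lists were counted as well. Then 19 of 154 pairs were at 39 bp, 21 of 31 at 16 bp, 12 of 26 at 8 bp and 10 of 35 at 55 bp, against means of 1.52, 0.307, 0.257 and 0.347 for each distance from 0 to 100 bp.

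**Figure D3:**
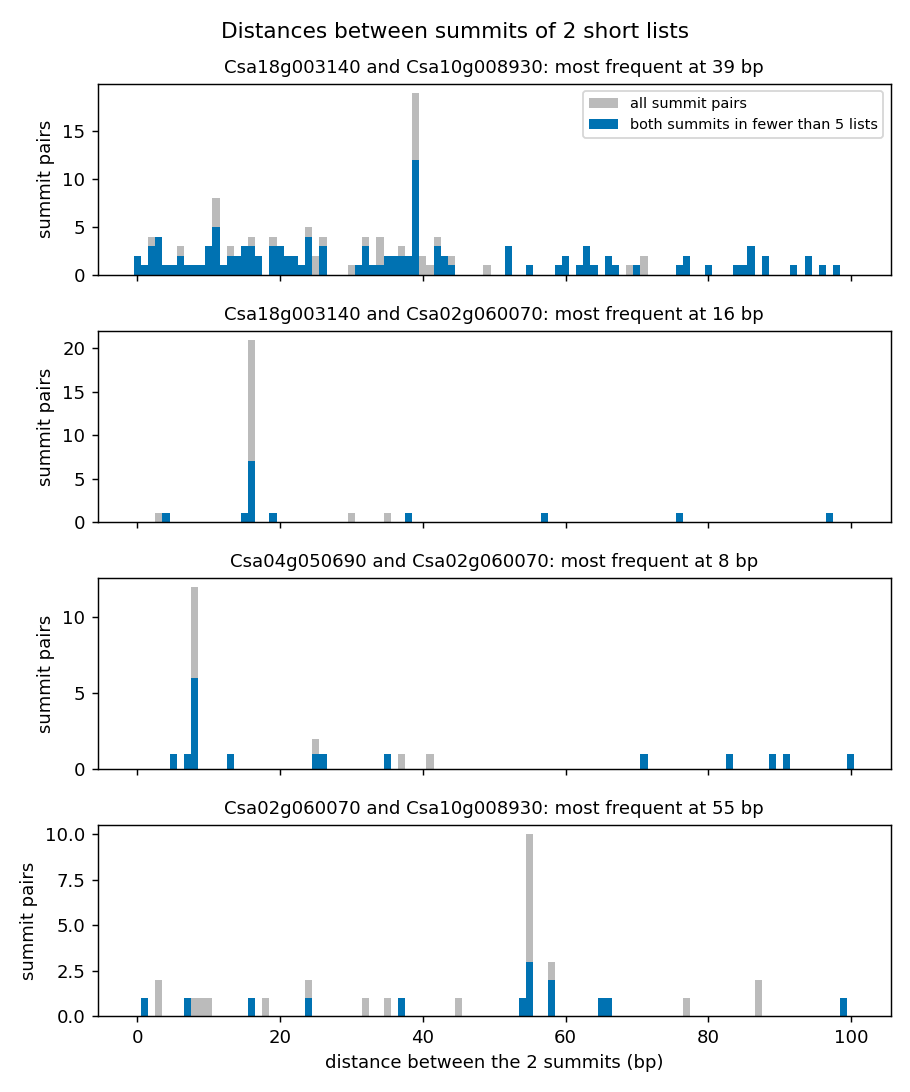
Number of summit pairs at each distance from 0 to 100 bp for 4 pairs of lists; grey bars are all summit pairs and blue bars those with both summits in fewer than 5 lists. A single distance stands out in each panel, at 39, 16, 8 and 55 bp.

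These distances added up to 1 arrangement. With Csa02g060070 set at 0, its most frequent distances placed Csa04g050690 at +8, Csa11g015700 at +12, Csa18g003140 at +16, Csa10g008930 at +55 and Csa05g079950 at -24 bp. The most frequent distance of 14 of the 15 pairs of lists equals the difference of these offsets. For example, Csa04g050690 and Csa10g008930 were most often 47 bp apart, Csa11g015700 and Csa10g008930 43 bp, and Csa05g079950 and Csa18g003140 40 bp. The exception was Csa05g079950 with Csa10g008930. Several of these modes rest on 3 summit pairs. The offsets were read from these data. The pairs with Csa02g060070 match by construction, since their distances set the offsets. The side of each list, plus or minus, was chosen so that the most pairs matched. The fit is therefore a description and carries no test.

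The offsets of Csa02g060070, Csa04g050690, Csa18g003140 and Csa10g008930 were also those of the kept summits alone. All 6 pairs among these 4 lists had the same most frequent distance there. The kept summit pairs are part of those from which the arrangement was read, so the match is partly built in. Some of these distances rest on few kept summit pairs. For Csa04g050690 it was 2 of 5 with Csa10g008930 and 3 of 7 with Csa18g003140. For Csa02g060070 with Csa10g008930 it was 3 of 14. The other 9 pairs of lists differed. Their kept summit pairs had another most frequent distance, as the 24 bp of Csa10g008930 and Csa11g015700, or no distance that led. The place of Csa11g015700 in the arrangement came from 7 summit pairs with Csa02g060070, of which 1 had both summits kept. That of Csa05g079950 came from 3 summit pairs with Csa02g060070, of which 0 had both summits kept.

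At 30 of the 186 sites (16.1%) kept summits of at least 2 lists stood at these offsets within 1 bp, in 1 of the 2 orientations. Of the 14 sites with 3 or 4 lists, 10 did, but such sites hold more pairs of lists that can match. When all 575 shared summits were joined, 59 of 250 positions (23.6%) kept the offsets, 32 forward and 27 reversed, on 17 chromosomes. Among the 64 of these positions without a kept summit the number was 27 (42.2%). A spacing kept in either direction was thus present in both the kept sites and those with more lists.

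The positions also held long lists at a fixed place, which the offsets did not use. Csa06g004330 had a summit within 100 bp at 32 of the 59 positions, and 18 of these summits were at exactly +2 bp, 20 within 1 bp of it. Csa04g012470 was present at 24 positions, 10 times at exactly +7 bp and 17 times within 1 bp of that. By contrast Csa06g051300, present at 15 positions, was at no single offset more than 3 times. Of the summits near +2 and +7 bp, 7 of each list were at positions with a kept summit. Neighbouring positions, as those on chromosome 11 from 29066378 to 29084198, were counted separately here. The counts are therefore not of independent places.

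**Figure D4:**
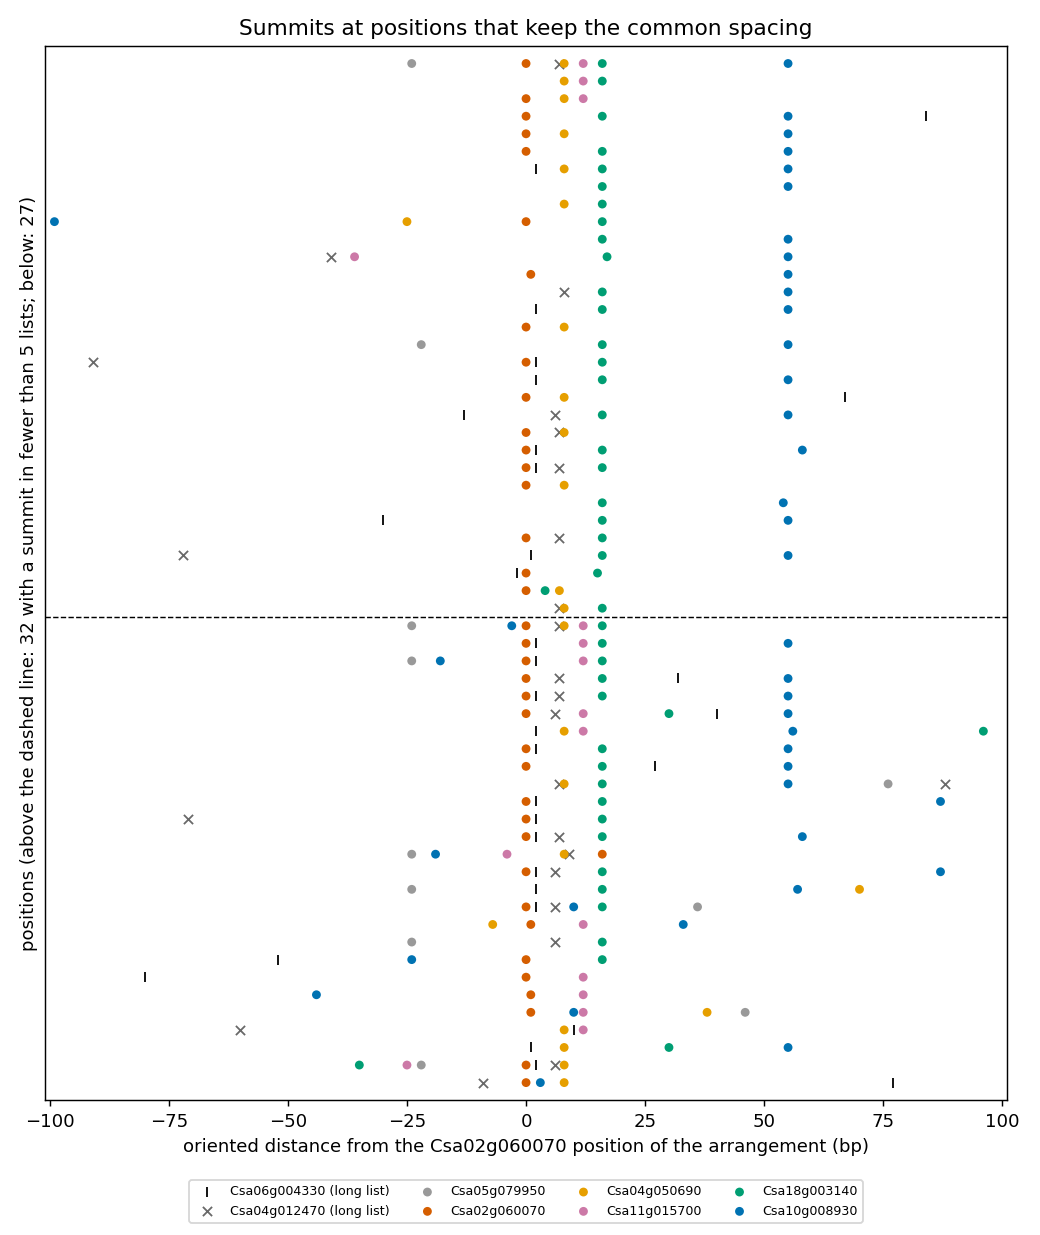
Summits of the 6 short lists (dots) and of the long lists of Csa06g004330 (bars) and Csa04g012470 (crosses) at the 59 positions that keep the common spacing, 1 row per position, turned to the same orientation. The short lists form columns at -24, 0, 8, 12, 16 and 55 bp because positions were chosen on these offsets; the columns of the long lists at 2 and 7 bp were not part of the choice.

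Sites with 3 or 4 lists serve as examples of the arrangement. Their summit pairs were among those counted for the distances, so they are no separate support for it. On chromosome 18 at position 2906345 Csa02g060070 had a signal of 66 (percentile 96.7), with Csa18g003140 at 34.3 16 bp on and Csa10g008930 at 38.5 55 bp on. By the authors' −log10 q, their significance value per peak, these summits were weaker. It was 2.09, 2.5 and 2.17 in the same order, near the smallest deposited value of 2. The long list Csa02g073390 had a summit of 121.8 there, 40 bp on. On chromosome 11 the order was reversed, with Csa10g008930 at position 29326033 (48.2), Csa18g003140 42 bp on (44.1), Csa02g060070 58 bp on (51.8) and Csa06g004330 56 bp on (72.4). Here the Csa10g008930 summit was 3 bp from its offset, and the other 3 were at theirs.

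On chromosome 4 at position 4018258 Csa02g060070 (48.1), Csa04g050690 (39) and Csa11g015700 (25) stood at 0, 8 and 12 bp. The strongest peak there was of the long list Csa06g051300, with a signal of 354.4 (percentile 99.3), 50 bp on. On chromosome 18 at position 7281979 Csa04g050690 (53.8), Csa18g003140 (37.6) and Csa10g008930 (47.6) stood at 0, 8 and 47 bp from the first of them, with Csa06g004330 (115.6) 6 bp before it. The offsets are kept to the base pair at both places. The −log10 q of the short-list summits ran from 2.05 to 3.06 on chromosome 4 and from 2.06 to 3.44 on chromosome 18. On chromosome 5 at position 24773845 only Csa18g003140 (62) and Csa10g008930 (59) kept their spacing, 38 bp within the 1 bp allowed, while Csa11g015700 (44) lay 53 bp before Csa18g003140. Csa04g012470 (42.5) lay 5 bp before Csa11g015700.

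The site with 4 lists was on chromosome 4 at position 10598904. Csa18g003140 had a signal of 49, Csa02g060070 of 98 (percentile 99.4) 16 bp on, Csa04g050690 of 74 (percentile 98.2) 41 bp on and Csa10g008930 of 50 115 bp on. The −log10 q of these summits was low, from 2.53 to 2.68. Only Csa18g003140 and Csa02g060070 were at their offsets. The long list Csa04g012470 (85) lay 164 bp on, outside the arrangement. On chromosome 19 at position 17657614 Csa04g050690 (43), Csa18g003140 (33.5) and Csa02g060070 (63.6) lay within 7 bp, with Csa04g050690 and Csa02g060070 at their spacing within 1 bp.

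In 3 of the 10 named sites with 3 or more lists no pair kept its offset. On chromosome 19 at position 9104497 Csa18g003140 (44), Csa11g015700 (30.6) and Csa10g008930 (75) lay within 9 bp of each other. On chromosome 8 at position 13680293 Csa18g003140 (38.7), Csa10g008930 (33.2) and Csa02g060070 (47.4) spanned 38 bp, with Csa06g004330 (172.8) 39 bp before the first of them. On chromosome 3 at position 20689938 Csa18g003140 (38.7), Csa04g050690 (41.6) and Csa02g060070 (43.6) spanned 97 bp. Sharing by 3 lists therefore also occurred without the spacing.

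All 6 short lists stood at their offsets at 1 position, on chromosome 11 with Csa02g060070 at 29071559. A summit there was in 10 lists, so most of it lies outside the kept sites.

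Several kept sites with the spacing lay close together. All 4 sites of the cluster on chromosome 6, from position 7616733, kept it, as did 4 of the 5 on chromosome 18 from position 7281979, 3 of the 4 on chromosome 11 from position 29319236 and both sites on chromosome 18 from position 2902880. Counted once where they lay within 20000 bp of each other, the 30 sites came to 20. By contrast the clusters of 2 sites on chromosome 17 held no such site. Nor did those of 2 on chromosome 11 from position 29137074 and on chromosome 19 from position 20375574. The clusters on chromosomes 3, 7 and 8, and that on chromosome 19 from position 17642688, held 1 each. The cluster on chromosome 4 held 2 among its 3 sites. The sources used here do not say how reads matching several places were treated, and its part in these clusters was not tested.

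Signals at the spacing differed from the other sites mainly for Csa02g060070. Its 16 kept summits at the offsets had signals of 41 to 105.1 with a median percentile of 96.4, and its 30 others 38 to 86.6 with a median percentile of 61.3. Ranked by −log10 q instead, the same 16 ran from percentile 5.49 to 99.8. The contrast with the 30 others was not taken by −log10 q. For Csa18g003140 the median percentiles were 68.1 (23 summits) and 62.9 (111), for Csa04g050690 85.3 (10) and 80.7 (17), and for Csa10g008930 77.1 (16) and 79.6 (130). Csa11g015700 had 1 kept summit at its offset and Csa05g079950 had 0.

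Of the 111 sites held by Csa10g008930 and Csa18g003140 alone, 9 kept the spacing. The other sites of this pair, the bulk of all those described, stood at many distances, more often short ones. Over all 120 sites of the pair the quartiles of the distance were 14.75 and 52 bp. The 7 sites of Csa10g008930 with Csa11g015700 alone, and the 5 of Csa02g060070 with Csa05g079950 alone, had 0 at the offsets.

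Long lists, those of 2000 peaks or more, were absent from 64 of the 186 sites. Another 62 sites held 1 of them, 59 held 2 and 1 held 3, so that 65.6% had at least 1. The rule caps this share, since it allows at most 2 beside a pair within 100 bp of the same summit. Counted by summit, 233 of the 380 kept summits (61.3%) had a long list within 100 bp, near the 58.6% of all 5161 summits. Among summits that no other of the 6 lists shared and that had at most 2 of the other 14, it was 53.3%. Csa06g004330 was the most frequent, at 39 sites (21%), followed by Csa02g073390 at 27, and by Csa04g012470, Csa06g051300 and Csa08g011090 at 23 each. The remaining lists were at 2 to 11 sites.

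The number of sites did not follow the length of the long list. Csa08g011090, with 5259 peaks, was present at 23 sites, as often as Csa04g012470 with 117085. Csa13g019570 (98602 peaks) was at 10, Csa01g013850 (79212) at 6 and Csa13g011780 (72460) at 5. This was not particular to the shared sites. Summits shared with no other of the 6 lists, with at most 2 of the other 14, were counted for 2 lists. Csa08g011090 and Csa04g012470 were at 13.5% and 12.9% of 817 such Csa18g003140 summits. For 1505 such Csa10g008930 summits it was 2.72% and 3.59%. At the shared sites with Csa06g004330 its peaks were strong in its own list (median signal 153, percentile 88.5), and those of Csa06g051300 had a median percentile of 78.8. Peaks of Csa04g012470 (36.1) and Csa13g019570 (14.5) were weak ones of their lists.

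For the main pair the long lists were set beside summits of the same list that no other of the 6 lists shared. To keep the same limit, these had at most 2 of the other 14 lists, and the kept summits compared were those with exactly 2 of the 6. Csa08g011090 was within 100 bp of 23 of the 135 kept Csa10g008930 summits (17%), against 2.72% of 1505 unshared ones. For Csa06g004330 it was 19.3% against 9.57%, and for Csa04g012470 9.63% against 3.59%. Csa06g051300 was alike in both (12.6% and 11.2%), and Csa02g073390 was less frequent at kept summits, 15.6% against 23.8%. Csa13g021450 was at 5.93% of kept and 2.13% of unshared summits, and Csa09g088620 at 4.44% and 3.72%. No long list was present at 36.3% of the kept and 48% of the unshared summits.

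Seen from Csa18g003140 the shares differed less for Csa08g011090, Csa06g004330, Csa04g012470 and Csa02g073390, and for Csa13g021450, Csa04g012470 and Csa02g073390 they lay in the opposite order. Csa08g011090 was at 21 of the 122 kept summits (17.2%), against 13.5% of 817 unshared ones, and Csa06g004330 at 16.4% against 11.3%. Csa04g012470 was at 11.5% and 12.9%, Csa02g073390 at 11.5% and 9.55%, and Csa06g051300 at 8.2% and 6.98%. Csa13g021450 was at 4.92% of kept and 9.79% of unshared summits, and Csa09g088620 at 4.92% and 1.84%. No long list was at 40.2% and 42.8%. The frequency of Csa08g011090 at the shared sites was thus near its frequency at other Csa18g003140 sites and above that at other Csa10g008930 sites. Neighbouring sites are not independent, so no test was made.

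**Figure D5:**
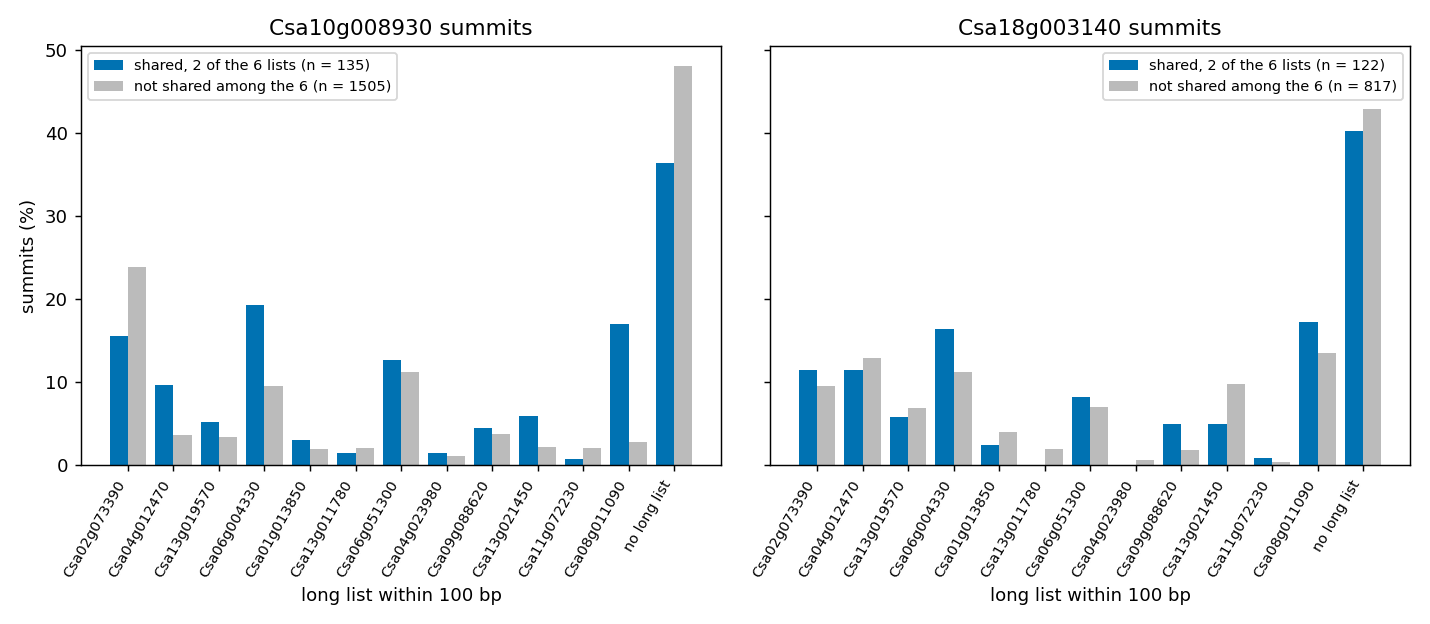
Share of Csa10g008930 (left) and Csa18g003140 (right) summits with a summit of each long list within 100 bp, for kept summits in exactly 2 of the 6 lists (blue) and summits shared with no other of the 6 (grey), both with at most 2 further lists. For Csa08g011090 the bars are 17% and 2.72% on the left and 17.2% and 13.5% on the right.

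Long lists came alone at 62 sites and in combinations of 2 at 59. Among those alone, Csa06g004330 alone was at 14, Csa08g011090 alone at 12, Csa02g073390 alone at 10 and Csa04g012470 alone at 9. The most frequent pairs were Csa02g073390 with Csa06g004330 at 8 sites, Csa04g012470 with Csa06g004330 at 7, and Csa13g021450 with Csa08g011090 at 6. The lists of under 100 peaks, Csa11g037200 and Csa19g005080, were at 1 site each.

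Messenger RNA of the factors themselves was counted in seeds of wild-type Suneson plants at 5, 8 and 11 days post-anthesis (DPA), with 3 libraries per age of 15659011 to 46863553 counts. Levels are given as CPM, the count scaled to the library's total, for each gene by itself and with no test between ages. For the main pair they differed in timing. Csa18g003140 was at 2.98 CPM ± 1.75, 26.3 ± 0.827 and 23.1 ± 1.41 at the 3 ages, while Csa10g008930 was at 0.111 ± 0.0599, 0.291 ± 0.0843 and 4.26 ± 0.862 (SD, n = 3). Libraries of 5 and 8 DPA thus held 12 and 35 counts of Csa10g008930 in all, and those of 11 DPA held 576.

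Csa02g060070 was at 0.994 CPM ± 0.153 at 5 DPA, 10.1 ± 1.69 at 8 DPA and 9.41 ± 0.795 at 11 DPA, its 8 and 11 DPA libraries overlapping. Its partner Csa04g050690 was at 19 CPM ± 0.886, 22.5 ± 0.291 and 23.3 ± 1.62. Csa11g015700 went from 8.35 CPM ± 0.172 over 16.6 ± 2.41 to 32.5 ± 5.85, with no overlap between ages. Csa05g079950 was at 11.4 CPM ± 2.32, 12.8 ± 0.833 and 29.1 ± 10.9 (SD, n = 3 each). All 6 factors thus had counts at 11 DPA, and the DAP-seq lists, made from leaf DNA in vitro, carry no age.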

How the data were processed

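Peak lists of 20 factors and a table of seed messenger RNA counts were used. GEM, a peak caller, made the peak lists, per the file names. For each peak the authors' lists hold a score of at most 1000, a signal whose unit is not stated, and p and q as −log10 values. The smallest −log10 q deposited was 2. For seeds the authors deposited raw counts by gene and sequencing run. HISAT2 2.0.4, Bowtie2 2.3.4.1, Trimmomatic, FastQC and bcl2fastq 2.20.0 appear, with no role stated, in the submitters' processing notes. The sources used here do not name the genome build, the control used in peak calling, any pooling of libraries or the sequencing depth behind the lists.

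Summits were matched within 100 bp, and kept summits were chained within 100 bp to sites, with Python 3.11.15, NumPy 2.4.6, pandas 2.3.3 and SciPy 1.17.1; figures used Matplotlib 3.10.9. The matching was tested on simulated lists with planted sites. Signal was ranked within a list, with equal signals given their mean rank. Named sites are the 10 with 3 or more lists whose lowest percentile is highest, and for each of the 5 leading pairs the 2 sites whose lower percentile is highest. The members, lists and alternatives were chosen with earlier results of these data known, and the offsets were read from the data. Counts of the 2 runs of a seed library were summed, except for 5 DPA replicate 1, whose second column equals that of replicate 2 and was left out. The labels call the 3 seed samples of an age biological replicates. Alternatives were other distances, list limits and score or q thresholds, leaving out each list, and, chosen after seeing the data, other tolerances for the spacing. No sequence was read, since no genome of the files' build was used here.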

Additional observations from a re-analysis of the deposited data

How the results depend on the processing

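The 120 sites of Csa10g008930 and Csa18g003140 came to 97, 137 and 84 with summits matched within 50 bp, within 200 bp or in the higher-scoring 50% of each list, and stayed the leading pair. The number of sites depended most on these 2 lists: without Csa18g003140 there were 62 sites and 122 summits, and without Csa10g008930 52 sites and 105 summits, with 61.5% and 64.8% of summits in the upper 50% of their list in place of 70.3%. Leaving out any of the other 4 lists gave 148 to 176 sites. With peaks of −log10 q of at least 3, 61 sites and 121 summits were left. The higher-scoring 50% of each list gave 121 sites, and 10 in place of 17 for Csa02g060070 and Csa04g050690. Without a limit on the number of lists there were 575 summits, and 74.8% of sites had a long list. With fewer than 4 lists there were 253 summits. Within 50 bp, 76.7% of summits were in the upper 50% of their list. Ranked by −log10 q in place of signal, 68.7% of the 380 summits were. Within 200 bp, 77.2% of sites had a long list. The cause of these shifts was not tested, beyond fewer or more summits entering.

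Alternatives on the spacing were added after seeing the data. Sites that keep it numbered 25 with exact offsets, 32 within 2 bp and 20 with neighbours within 20000 bp counted once. Of the 15 pairs of lists, 14 had the distance of the offsets when pairs up to 300 bp were counted, and 6 with kept summits alone. The offsets themselves had been set by the pairs with Csa02g060070, with signs chosen to match the most pairs. Seed levels from the first run alone moved by more than 1 SD in 5 of 18 values. No paired analysis of the peak lists was possible because each factor has 1 list. The seed ages have 3 libraries each, and their levels were given without a test by choice. Depth limits the lists in an unknown way, as it is not given.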
